A study of Mus musculus with 8 samples.

Results

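Ccl5 is the mouse gene for the chemokine CCL5, also called RANTES, and is 1 of 20408 genes in the expression matrices analysed here. It was chosen by its measured levels after cGAMP and after PBS in earlier results of these same libraries, so the comparison of cGAMP with PBS is given as a description without a test. Its levels by tumour model and by vessel marker were read under the same rule. Their p-values are therefore not independent of that choice. Its level was read in tumour endothelial cells (ECs), taken as the cells with at least 1 unique molecular identifier (UMI, a counted transcript molecule) of Pecam1, which encodes the endothelial adhesion molecule CD31. There were 7159 such ECs among 8204 deposited cells.

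The cells came from breast tumours of 2 kinds in adult mice. Spontaneous tumours arose in MMTV-PyMT mice, in which the mouse mammary tumour virus promoter drives the polyoma middle T oncogene in mammary epithelium, and implanted tumours were grown from cells of such tumours, expanded in culture and placed in the mammary fat pad of recipient females. Tumours were injected with PBS or with cGAMP, a cyclic dinucleotide that activates the sensor STING, and live CD31+ cells lacking CD45 were sorted 3 h later. The tumour kind and the injection together make 4 groups of 2 libraries, named for both (spontaneous PBS and so on), with 2 mice per group in the study's account, and the p-values measure only the spread between these libraries. Every library is labelled C57BL/6, but FVB mice are named for the breast models in the study's methods, and these data do not settle the strain.

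CCL5 is secreted and draws T cells, NK cells and monocytes through chemokine receptors such as CCR1 and CCR3. It binds to glycosaminoglycans on the endothelial surface, where it can be presented to leucocytes in the blood stream, and the atypical receptors ACKR1 and ACKR2 bind it without classical signalling. In cells with active STING, the kinase TBK1 activates the transcription factor IRF3, NF-kB is activated as well, and Ccl5 is a known target of both arms and of the type I interferon response that follows.

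The depth of the 8 libraries was 7863535 to 16506086 UMIs over 654 to 2025 cells. Implanted cGAMP replicate 1 stood apart, with the most cells and a median of 2014 UMIs per cell against 8803.5 to 13148 in the other libraries. At most 3 cell barcodes were shared by any pair of libraries. The ECs matched their label: leaving out Pecam1, which chose them, at least 2 of 5 other endothelial markers (Cdh5, Kdr, Emcn, Tie1 and Egfl7) were found in 97.4% of the ECs of implanted cGAMP replicate 2, in 90.5% of those of the shallow replicate 1 and in 96.9% to 98.5% in the other libraries. Markers of other cells were present as well: the share of ECs with a Ptprc UMI (the gene for CD45) or with 2 or more myeloid or T and NK markers was 4.63% and 4.76% in the spontaneous cGAMP libraries and 12.2% and 10.6% in the implanted cGAMP libraries, against 0.832% to 1.30% in the PBS libraries. Such leucocyte-marked ECs held 14.1%, 15.1%, 7.29% and 8.36% of the Ccl5 UMIs of the spontaneous and implanted cGAMP ECs, in that order, so most Ccl5 UMIs lay outside them. ECs with 2 or more epithelial markers were 22.5%, 18.6%, 19.0% and 7.95% of the ECs in the same order. They held 25.8%, 36.1%, 22.1% and 17.6% of the Ccl5 UMIs. ECs with 2 or more mural markers (of pericytes and smooth muscle cells around vessels) were 20%, 12.6%, 8.24% and 8.61% of the ECs. Those held 25.3%, 20.3%, 8.11% and 7.03% of the Ccl5 UMIs. These sets can overlap, and the part of other cells in the Ccl5 UMIs was not tested.

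Ccl5 lies on mouse chromosome 11 at chr11:83525778-83530518 on the minus strand (GRCm38, the build called mm10 in the submitters' notes), where the GENCODE annotation gives a gene of 3 exons. Towards higher positions lie the chemokine genes Ccl9, Ccl6, Ccl3 and Ccl4, with Rpl9-ps1 between Ccl6 and Ccl3. For orientation, 3 promoters are printed as the 250 bases before the gene start in RefSeq (GRCm38.p6), 5′ to 3′ on the gene's strand. They were chosen for their place in the results: Cxcl10 as a chemokine that rose in both models with Ccl5, Ifit3 as an interferon-response gene among the profiles nearest to that of Ccl5, and Ccl9 as the nearest chemokine gene on the chromosome. Ccl5 itself has no entry in the promoter table used. Capitals mark matches on either strand to 1 of 2 motifs. The first is the core of the interferon-stimulated response element, read as GAAA, any 2 bases and GAAA. The second is a form of the NF-kB site, read as GGGA, any base, TT, any base and CC.
Cxcl10, chr5:92348890-92349139, minus strand: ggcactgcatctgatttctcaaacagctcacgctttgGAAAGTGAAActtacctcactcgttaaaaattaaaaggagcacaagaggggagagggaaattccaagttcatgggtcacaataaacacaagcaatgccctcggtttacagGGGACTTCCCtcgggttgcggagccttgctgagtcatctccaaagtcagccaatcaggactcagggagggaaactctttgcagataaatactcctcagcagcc
Ifit3, chr19:34583279-34583528, plus strand: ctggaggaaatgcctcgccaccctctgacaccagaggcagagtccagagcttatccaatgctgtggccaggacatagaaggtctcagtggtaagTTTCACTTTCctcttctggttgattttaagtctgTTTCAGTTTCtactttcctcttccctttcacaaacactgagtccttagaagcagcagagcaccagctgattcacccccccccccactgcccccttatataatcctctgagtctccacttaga
Ccl9, chr11:83578637-83578886, minus strand: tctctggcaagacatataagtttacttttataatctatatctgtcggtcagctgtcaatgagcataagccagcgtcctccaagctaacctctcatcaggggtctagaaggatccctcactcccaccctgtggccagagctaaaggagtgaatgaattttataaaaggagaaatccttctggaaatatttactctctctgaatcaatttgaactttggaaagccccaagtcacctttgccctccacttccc

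The Cxcl10 window held 1 match to each motif, with the interferon element starting 213 bases and the NF-kB form 103 bases before the gene start. The Ifit3 window held 2 matches to the interferon element, starting 156 and 122 bases before the start, and the Ccl9 window held neither motif. Among 32851 promoter windows of this length, 2.98% held the interferon element, 0.98% held the NF-kB form and 0.043% held both. A match describes these letters and does not show that a factor binds there.

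Ccl5 was close to absent from tumour ECs after PBS and abundant after cGAMP. Levels are given as CPM, the UMIs of the gene per 1000000 UMIs of a cell, averaged over the ECs of a library. After PBS the level was 1.27 and 0.242 CPM in spontaneous tumours, from 9 and 2 UMIs, with 1 UMI in every positive cell. It was 4.84 and 1.33 CPM in implanted tumours, from 76 and 30 UMIs. After cGAMP it was 1919 and 1289 CPM in spontaneous tumours and 2399.8 and 2223 CPM in implanted tumours, from 21894, 19484, 35693 and 24651 UMIs. In each model the 2 libraries after cGAMP exceeded the 2 after PBS, as was the case, by any amount, for 18.8% of all genes tested in spontaneous and 21.6% in implanted tumours, and the group means were 1604 ± 446 CPM and 2311 ± 125 CPM after cGAMP (SD, n = 2 each) against 0.757 ± 0.728 and 3.08 ± 2.48 CPM after PBS.

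On the log2(CPM + 1) scale the level after cGAMP exceeded that after PBS by 9.87 ± 0.40 (SE) in spontaneous and by 9.29 ± 0.40 in implanted tumours. In both models this was the highest of the 10424 genes that had at least 5 CPM in 2 or more libraries, a property that the choice of the gene fixed in advance. For comparison, 12.7% of these genes passed an adjusted p of 0.05 for cGAMP against PBS in spontaneous tumours and 25.0% in implanted tumours (limma with Benjamini-Hochberg adjustment). Since 1 UMI more or less weighs heavily after PBS, the pooled UMIs were also set against each other: Ccl5 made up 1926 CPM of the pooled UMIs after cGAMP and 0.603 CPM after PBS in spontaneous tumours, a ratio of 3192 with an exact 95% interval of 1784 to 6395. In implanted tumours it made up 2487 and 3.43 CPM, a ratio of 726 with an interval of 599.96 to 887. These intervals cover counting error only and treat each UMI as an independent draw. They cover neither the uneven spread of the UMIs over cells nor the difference between mice.

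**Figure D1:**
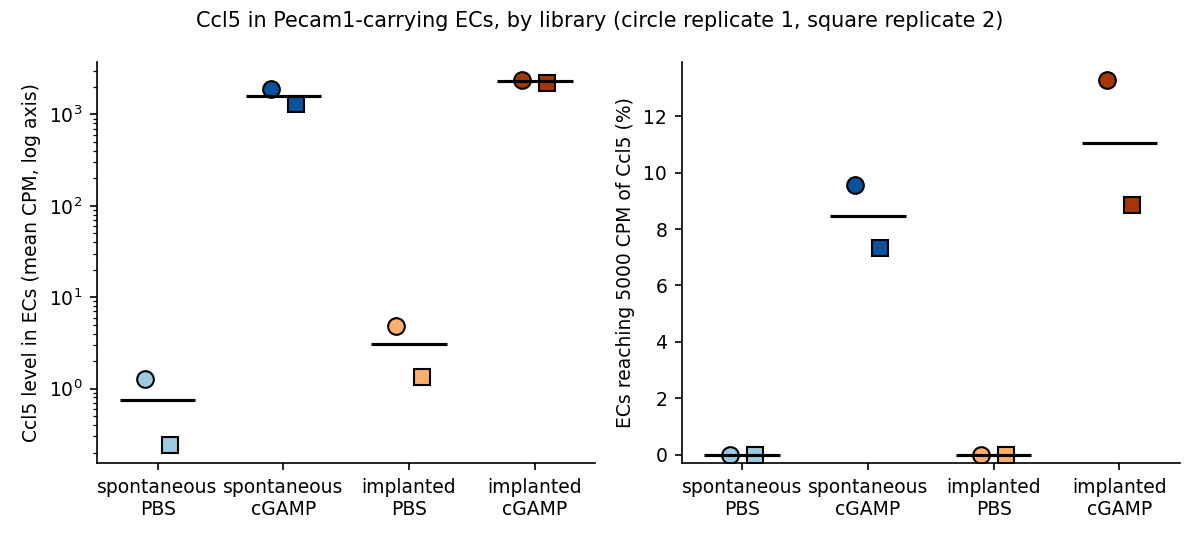
Ccl5 in Pecam1-carrying ECs of each library, with circles for replicate 1, squares for replicate 2 and lines for the group mean; the left panel gives mean CPM on a log axis and the right panel the percent of ECs with at least 2000 UMIs that reached 5000 CPM. The PBS libraries lie at or under 4.84 CPM with no EC at 5000 CPM, and the cGAMP libraries between 1289 and 2399.8 CPM with 7.33% to 13.3% of ECs at that level.

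After PBS, much of what Ccl5 there was in implanted tumours came from single cells marked as leucocytes. In implanted PBS replicate 1, 1 cell with a Pecam1 UMI held 32 of the 76 UMIs, and in replicate 2 another held 20 of the 30. Both cells carried a Ptprc UMI and 2 or more markers of T and NK cells, lymphocytes that express CCL5, and of myeloid cells. The other ECs held 44 and 10 UMIs. No leucocyte-marked cell of the spontaneous PBS libraries carried a Ccl5 UMI. The level after PBS was higher by 1.13 ± 0.40 on the log2(CPM + 1) scale in implanted than in spontaneous tumours, with an adjusted p of 0.116 (limma, all 8 libraries in 1 fit, with 7.83% of genes called), and by 0.57 with an adjusted p of 0.473 in ECs without markers of other cells. It passed in 4 of 19 alternatives, namely all deposited cells (1.31, adjusted p = 0.00489, limma), summed UMIs (1.46, adjusted p = 0.0227), the replicate number as a block (adjusted p = 0.0246) and the fit without implanted PBS replicate 2 (1.80, adjusted p = 0.0222), while without implanted PBS replicate 1 it was 0.47. Spontaneous PBS replicate 2, with 2 UMIs, was under the floor of 3 counts, so the size of this difference is uncertain.

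The share of ECs with any Ccl5 UMI was 0.933% (95% Wilson interval 0.491% to 1.76%) and 0.333% (0.0913% to 1.21%) in spontaneous PBS libraries and 3.20% (2.28% to 4.48%) and 0.912% (0.496% to 1.67%) in implanted PBS libraries. After cGAMP it was 52.5% (48.8% to 56.3%) and 50.9% (47.2% to 54.6%) in spontaneous and 67.4% (65.0% to 69.7%) and 69.2% (65.4% to 72.8%) in implanted tumours. With each cell thinned to 2000 UMIs, the cGAMP shares were 28.8%, 24.5%, 44.0% and 36.5% in the same order, leaving out 580 shallower ECs of implanted cGAMP replicate 1. Cells outside the ECs held Ccl5 UMIs as well. Of the cells without a Pecam1 UMI that carried 2 or more mural markers, 44.8% of 29 and 44.1% of 34 did so in the spontaneous cGAMP libraries. Their median depths were 7245 and 10780.5 UMIs against 12610.5 and 14493 in the ECs. Whether these UMIs came from free RNA or from expression by the mural cells was not tested. For this reason a single UMI in a cell of a cGAMP library is not read here as expression by that cell.

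Most Ccl5 UMIs sat in few ECs. The median EC held 1 Ccl5 UMI in each of the 4 cGAMP libraries, and the highest EC held 1290, 1706, 1444 and 2245. ECs with 100 or more Ccl5 UMIs were 7.76% and 6.78% of the ECs of the spontaneous cGAMP libraries and held 84.3% and 88.0% of the Ccl5 UMIs. They were 4.91% and 9.11% of the ECs of the implanted cGAMP libraries and held 77.9% and 84.8%. At the other end, no Ccl5 UMI was found in 47.5% and 49.1% of the ECs of the spontaneous and in 32.6% and 30.8% of those of the implanted cGAMP libraries.

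**Figure D2:**
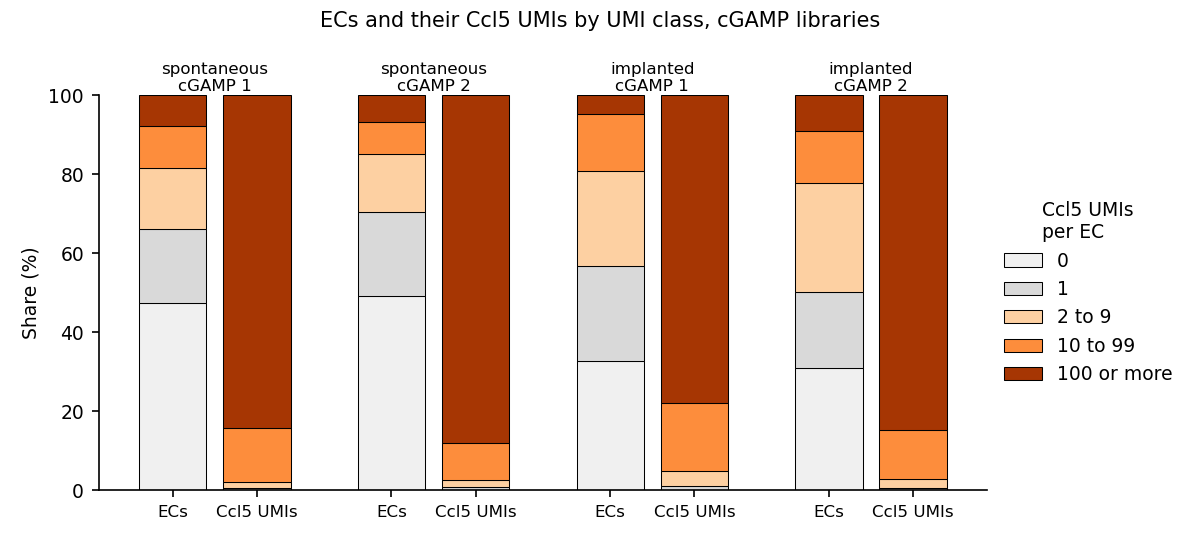
Share in percent of the ECs (left bar of each pair) and of their Ccl5 UMIs (right bar) that fall into 5 classes of Ccl5 UMIs per EC, for the 4 cGAMP libraries. ECs with 100 or more UMIs are 4.91% to 9.11% of the ECs and hold 77.9% to 88.0% of the UMIs.

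A second measure of these high-level ECs, chosen after the values were seen, was the share of ECs with at least 2000 UMIs in which Ccl5 reached 5000 CPM. It was 9.57% (7.54% to 12.1%) and 7.33% (5.56% to 9.61%) in spontaneous cGAMP libraries and 13.3% (11.3% to 15.6%) and 8.85% (6.78% to 11.5%) in implanted cGAMP libraries. No EC of the 4 PBS libraries reached that level, out of 554 to 1027 ECs each, which allows a share of up to 0.542% in the smallest of them. The models overlapped, as spontaneous cGAMP replicate 1 lay above implanted cGAMP replicate 2.

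After cGAMP, the level did not pass the test between the models. Both implanted libraries were above both spontaneous libraries, as was the case for 21.4% of the genes tested. The difference was 0.55 ± 0.40 on the log2(CPM + 1) scale (95% interval -0.34 to 1.45) with an adjusted p of 0.387 (limma), while 13.8% of the genes were called in this comparison. The responses to cGAMP in the models differed by -0.58 ± 0.56 (implanted minus spontaneous), which is given without a test and moved to 0.11 in ECs without markers of other cells. For this difference of responses 0.662% of the genes tested were called.

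Among ECs after cGAMP, Ccl5 differed by vessel type. ECs were assigned to a vessel type when they carried UMIs of at least 2 of its 6 markers and of more of them than of any other type, and each type was compared with the other ECs of the same libraries. Ccl5 took no part in these assignments, but its levels by vessel marker were read under the rule that chose the gene. The p-values by vessel type describe these libraries and are not independent of that choice. By the mean over the 4 libraries it was highest in ECs with tip cell markers (Pgf, Adm, Apln, Esm1, Cxcr4 and Nid2), the leading cells of growing sprouts, and lowest in capillary ECs with Aqp7, Cd36, Gpihbp1, Timp4, Cd300lg and Tcf15, a set that includes genes for the uptake of fatty acids and glycerol. In single libraries the order could differ: lymphatic ECs lay above tip-marked ECs in spontaneous cGAMP replicate 2 and implanted cGAMP replicate 1, and arterial ECs lay below AQP7 capillary ECs in the same libraries.

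In tip-marked ECs the level was 5989.8 and 4671 CPM in spontaneous and 3330.1 and 5088 CPM in implanted cGAMP libraries, from 78, 55, 141 and 76 cells. All 4 values were above those of the other ECs, with means of 4769.8 against 1624 CPM. The difference was 1.59 ± 0.20 on the log2(CPM + 1) scale, higher in 4 of 4 libraries, with an adjusted p of 0.000196 (limma, adjusted over all genes and types), where 5.46% of 9670 genes were called higher in these cells. Tip-marked ECs were 11.6%, 7.94%, 9.22% and 12.6% of the ECs and held 37.8%, 32.7%, 24.9% and 35.1% of their Ccl5 UMIs. Of the tip-marked ECs with at least 2000 UMIs, 28.2% (19.4% to 39.0%), 27.3% (17.3% to 40.2%), 25.0% (17.5% to 34.3%) and 11.3% (5.82% to 20.7%) reached 5000 CPM. A Ptprc UMI was found in 3.64% to 6.41% of all tip-marked ECs. In the same order of libraries, 2 or more myeloid markers were found in 2.56%, 5.45%, 10.6% and 10.5% of them. Mural markers were found in 16.7%, 7.27%, 4.96% and 15.8%, and epithelial markers in 23.1%, 21.8%, 16.3% and 3.95%, again 2 or more. In ECs without markers of other cells the difference was 1.58 (adjusted p = 1.99e-05, limma).

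In AQP7 capillary ECs the level was 443 and 625 CPM in spontaneous and 1121 and 218 CPM in implanted cGAMP libraries, from 141, 139, 174 and 100 cells. It was lower than in the other ECs in all 4 libraries, with means of 602 against 2238 CPM and a difference of -2.09 ± 0.21 (adjusted p = 3.36e-07, limma), where 6.59% of 9725 genes were called lower. These ECs were 21.0%, 20.1%, 11.4% and 16.6% of the ECs and held 4.45%, 9.40%, 2.43% and 0.641% of their Ccl5 UMIs. Few of them reached 5000 CPM, from 0 of 88 in implanted cGAMP replicate 2, which allows up to 3.41%, to 4 of 122 in spontaneous cGAMP replicate 2.

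ECs of lymphatic vessels, marked by Prox1, Lyve1, Ccl21a, Flt4, Mmrn1 and Pdpn, had 2147 CPM in spontaneous cGAMP replicate 1 and 5259 and 3544 CPM in the implanted cGAMP libraries. Spontaneous cGAMP replicate 2 had 4693 CPM from 18 cells and stayed out of the fit, which needed 20 cells. The difference from the other ECs was 0.75 ± 0.19, higher in 3 of 3 libraries, with an adjusted p of 0.0346 (limma), where 6.11% of 9928 genes were called higher. Without implanted cGAMP replicate 1 the adjusted p was 0.0512, and without replicate 2 it was 0.137. Of the lymphatic ECs, 11.1% to 32.0% carried 2 or more epithelial markers, and the part of other cells in this difference was not tested.

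Venous ECs, marked by Ackr1, Selp, Vwf, Nr2f2, Ephb4 and Lrg1, had 1148 and 942 CPM in spontaneous and 2078 and 1582 CPM in implanted cGAMP libraries. They were lower than the other ECs in 4 of 4 libraries, with a difference of -0.61 ± 0.09 (adjusted p = 0.000853, limma), with 7.54% of 9741 genes called lower. Venous ECs include those that recruit leucocytes. Ackr1 and Selp led this set, as markers that defined it, and Sele came next. Arterial ECs, marked by Gja5, Gja4, Sema3g, Bmx, Hey1 and Fbln5, had 1553, 429.5, 925 and 2383 CPM, lower than the other ECs in 3 of 4 libraries. Their difference was -0.86 ± 0.23 with an adjusted p of 0.0287 (limma), with 9.07% of 9762 genes called lower, but the adjusted p was 0.149 without spontaneous cGAMP replicate 2 and 0.118 without implanted cGAMP replicate 1. ECs in none of the sets had 2388, 1303, 2498 and 2062 CPM. Proliferating ECs were too few for a comparison, with 1 to 8 cells in each cGAMP library.

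**Figure D3:**
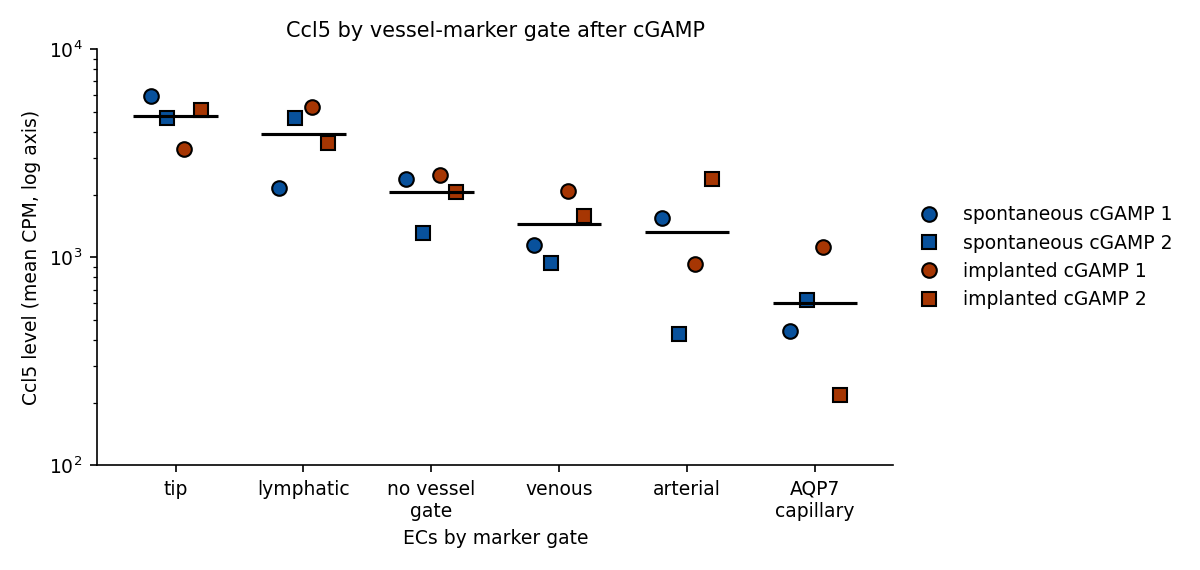
Ccl5 level in mean CPM (log axis) in ECs of the 4 cGAMP libraries by vessel type, with 1 point for each library and a line for the mean of the 4 points. Tip-marked ECs lie between 3330.1 and 5989.8 CPM and AQP7 capillary ECs between 218 and 1121 CPM; the lymphatic point of spontaneous cGAMP replicate 2 rests on 18 cells.

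Ccl5 was also read by single markers, as a description. Of 30 vessel markers with at least 20 ECs in each of the 4 cGAMP libraries, ECs with a UMI of Pgf, the gene for placental growth factor, had the highest mean level, 5115 CPM with a range of 3576 to 6273 over the libraries. The lymphatic markers Pdpn, Lyve1, Prox1 and Mmrn1 came next, with mean levels of 3274 to 4365 CPM. Not all tip markers were alike. ECs with a UMI of Adm had a mean of 3088 CPM with a range of 1489 to 4266. Means were lower for the tip markers Esm1, at 2041 CPM (1320 to 3245), and Nid2, at 1978 CPM (1238 to 2549). Esm1 and Nid2 ranked 10 and 13 of the 30. The level over all ECs was 1289 to 2399.8 CPM in these libraries. The lowest mean levels were in ECs with a UMI of Aqp7, an aquaporin that lets glycerol pass, at 448 CPM with a range of 80.4 to 985, and of Cd300lg, a capillary surface protein, at 794 CPM with a range of 563 to 928. The ranges of Pgf and Pdpn overlapped, as did those of Aqp7 and Cd300lg.

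In vessel types after PBS there was too little Ccl5 to compare. Lymphatic ECs of the spontaneous PBS libraries held no Ccl5 UMI in 47 cells, which allows a share of cells with a UMI of up to 6.38% and sets no limit on expression below detection, and tip-marked ECs held 1 UMI in 108 cells. In the implanted PBS libraries they held 1 UMI in 64 cells and 8 UMIs in 167 cells.

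Cells without a Pecam1 UMI also held Ccl5 after cGAMP, at 2558 and 1402 CPM in spontaneous and 3079 and 4980 CPM in implanted tumours, from 71, 88, 496 and 50 cells. They were shallow, with medians of 1105 to 2204 UMIs, most matched no list of other cells, and 40.8% to 69.2% of them carried 2 or more endothelial markers. Cells with mural markers had 755 and 82.2 CPM in the spontaneous cGAMP libraries, from 29 and 34 cells. The second of these values lay far under the 1289 CPM of the ECs of that library, with at most 3 UMIs in any cell. In implanted cGAMP replicate 1, 12 such cells had 5489 CPM at a median depth of 1028 UMIs. In the same library 27 cells with myeloid markers had 6565 CPM and 8 cells with T and NK markers had 4249 CPM, while 82 cells with epithelial markers had 4041 CPM, at median depths of 1300 to 1562 UMIs. The sort removed CD45+ cells, so these few cells do not describe the leucocytes of the tumours. No such set reached 20 cells in 3 libraries, and the levels of sets other than ECs were not tested. After PBS the cells without a Pecam1 UMI held 2 Ccl5 UMIs in 148 cells of spontaneous and 7 in 192 cells of implanted tumours.

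Other chemokines rose with cGAMP in both models. Of 32 chemokine genes other than Ccl5, 31 were in the files and 15 passed the filter on low levels, most of the rest being near 0 in ECs. In spontaneous tumours 5 of the 15 rose and none fell at an adjusted p of 0.05 (limma), against 5.09% of all genes tested that rose and 7.59% that fell. The median difference of the 15 was 1.13 on the log2 scale, against -0.10 over all genes. In implanted tumours 11 rose and Cxcl12 fell, against 8.60% and 16.4%, with a median of 1.99 against -0.10. The rises counted in both models include Ccl11, which passed the filter only through the cGAMP libraries. Scaling by median of ratios changed the share of higher calls among all calls from 40.2% to 66.4% in spontaneous and from 34.3% to 51.5% in implanted tumours.

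Ccl2, the ligand of CCR2 that draws monocytes, had 7.996 and 12.6 CPM after PBS and 166 and 71.4 CPM after cGAMP in spontaneous tumours. In implanted tumours it had 11.3 and 10.8 CPM after PBS and 391 and 209 CPM after cGAMP. All cGAMP libraries were above all PBS libraries, with log2 differences of 3.32 ± 0.38 and 4.58 ± 0.38 (adjusted p = 0.00047 and 5.69e-05, limma). Ccl11, the eosinophil chemokine eotaxin, had 0.297 and 1.53 CPM after PBS and 10.8 and 10.7 CPM after cGAMP in spontaneous tumours. In implanted tumours it had 1.28 and 0.169 CPM after PBS and 22.2 and 6.60 CPM after cGAMP. It reached 5 CPM only after cGAMP, so it was tested only because it was higher there, and no p-value is given for it. In spontaneous tumours its call was lost in 5 of 18 alternatives, among them those without spontaneous PBS replicate 1 and without either spontaneous cGAMP replicate.

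Cxcl9 and Cxcl10, ligands of CXCR3, rose in both models. Cxcl9 had 30.2 and 21.1 CPM after PBS and 1574 and 1382 CPM after cGAMP in spontaneous tumours, a difference of 5.81 ± 0.29. In implanted tumours Cxcl9 was already at 1724 and 819 CPM after PBS and had 2925 and 3749.9 CPM after cGAMP, a difference of 1.48 ± 0.29. Cxcl10 rose by 4.79 ± 0.41 in spontaneous and 2.17 ± 0.41 in implanted tumours (adjusted p = 5.64e-05 and 0.00484, limma). Ccl20, which draws cells with CCR6, was listed at 0 CPM in both implanted PBS libraries and had 27.5 and 94.3 CPM in the implanted cGAMP libraries (adjusted p = 0.00132, limma), while in spontaneous tumours it had 5.47 and 28.1 CPM after PBS and 3.43 and 0 CPM after cGAMP (adjusted p = 0.0649, limma). In spontaneous tumours Ccl20 passed as lower in 6 of 19 alternatives, among them summed UMIs (-2.87, adjusted p = 0.0155, limma), with adjusted p from 0.0155 to 0.342 over all of them.

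**Figure D4:**
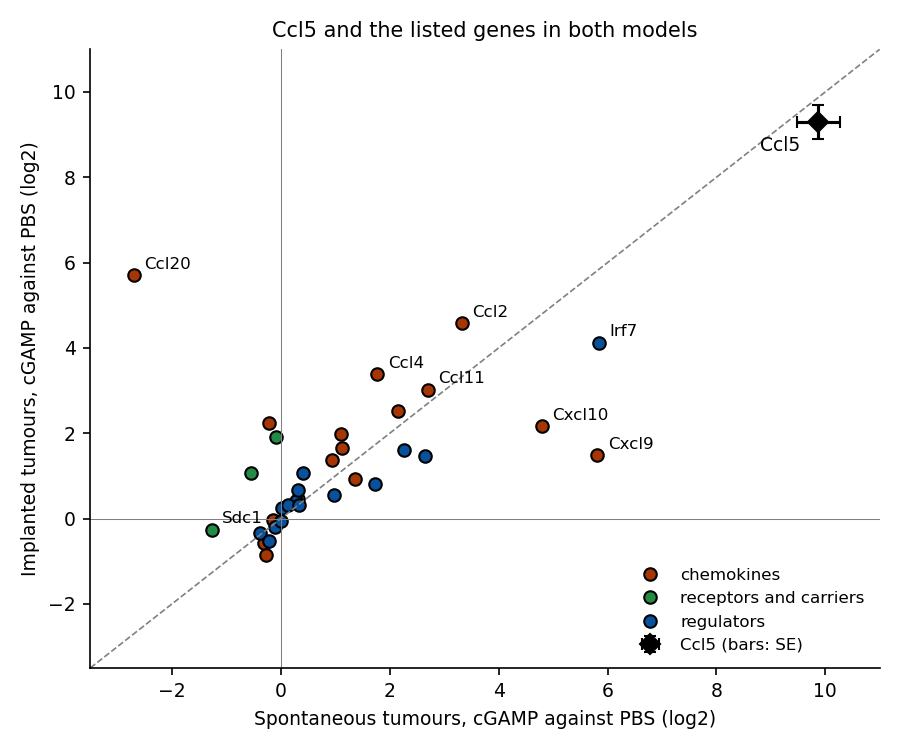
Difference between cGAMP and PBS in ECs on the log2(CPM + 1) scale, in spontaneous tumours (x axis) and implanted tumours (y axis), for Ccl5 (diamond, bars for the SE) and the tested genes of the 3 lists (circles). The dashed line marks equal differences; Ccl5 lies at 9.87 and 9.29, beyond every listed gene on both axes.

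The chemokine genes beside Ccl5 on chromosome 11 stayed low. Ccl9, Ccl6 and Ccl3, with start sites 48.1, 62.6 and 119 kb from that of Ccl5, were at most 1.26 CPM in every library of spontaneous tumours and in every PBS library. In implanted cGAMP replicate 1 they had 14.6, 15.3 and 22.8 CPM, and in replicate 2 they had 2.14, 0.68 and 1.20 CPM, and none passed the filter on low levels. Ccl4, another CC chemokine, had 68.7 and 11.99 CPM in implanted cGAMP libraries against 5.93 and 0.205 CPM after PBS and passed the test there (3.38 ± 0.86, adjusted p = 0.0187, limma). The call for Ccl4 was lost in 3 of 19 alternatives: without implanted PBS replicate 2 (2.12, adjusted p = 0.137), without implanted cGAMP replicate 1 (2.17, adjusted p = 0.108) and with no filter on low levels (adjusted p = 0.0753). In spontaneous tumours Ccl4 had 3.18 and 2.54 CPM after cGAMP and 0 and 0.271 CPM after PBS (adjusted p = 0.205, limma). Implanted cGAMP replicate 1 was also the library with the largest share of leucocyte-marked ECs, and the part of such cells in these values was not tested. Of the 14 protein-coding genes within 200 kb of Ccl5, Heatr9, whose start lies 8.34 kb away, was at most 0.577 CPM in every library, and Taf15, a general transcription factor 57.4 kb away, had 40.5 to 59.5 CPM in all 8.

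**Figure D5:**
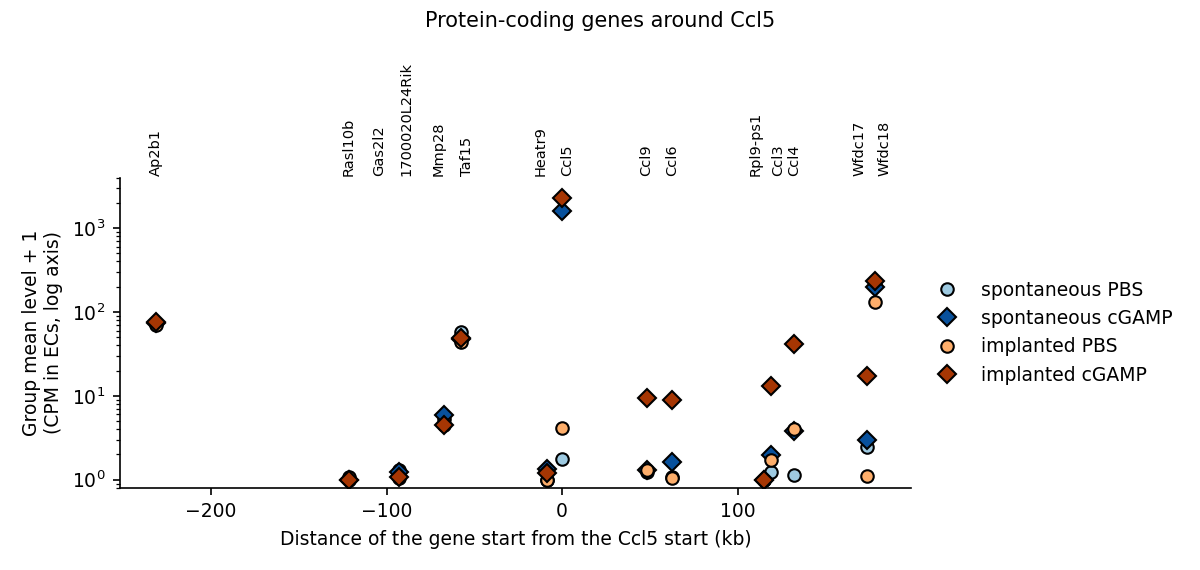
Group mean level in ECs (CPM + 1, log axis) of Ccl5 and the protein-coding genes within 200 kb of it, by the distance of each gene's start from the Ccl5 start in kb. Ccl5 is far above 1000 CPM after cGAMP in both models, while Ccl9, Ccl6 and Ccl3 stay under 23 CPM in every library.

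The CCL5 receptors Ccr1 and Ccr3 were scarcely found in these cells. Ccr3 was at 0 CPM in all 8 libraries, and Ccr1 was at most 0.405 CPM outside the implanted cGAMP libraries, where it had 5.81 and 2.54 CPM, under the filter on low levels. Of the 4 listed receptors and carriers that were tested, Sdc1 fell in spontaneous tumours, and Ackr2 and Sdc4 rose in implanted tumours, against 7.59% of all genes tested that fell in the former and 8.60% that rose in the latter. Ackr1, the venous receptor that binds CCL5, had 102 to 145 CPM in the spontaneous libraries and was not called in either model (adjusted p = 0.631 and 0.407, limma). Ackr2, a scavenger of inflammatory CC chemokines, had 7.06 and 9.66 CPM after PBS and 17.3 and 19.8 CPM after cGAMP in implanted tumours (1.07 ± 0.19, adjusted p = 0.00382, limma), and 10.8 and 9.28 against 6.33 and 6.72 CPM in spontaneous tumours (adjusted p = 0.0965, limma). Lymphatic ECs were 3.6% and 2.55% of the ECs of the implanted PBS libraries and 10.0% and 7.95% of those of the implanted cGAMP libraries. In spontaneous tumours they were 2.49% and 3.83% after PBS and 3.88% and 2.60% after cGAMP. The part of this change in the cell mix in the Ackr2 values was not tested. Sdc4, a heparan sulphate carrier, had 8.30 and 6.30 CPM after PBS and 43.3 and 20.8 CPM after cGAMP in implanted tumours (adjusted p = 0.00228, limma). Sdc1, another such carrier, had 26.4 and 20.3 CPM after PBS and 10.0 and 8.10 CPM after cGAMP in spontaneous tumours (adjusted p = 0.0173, limma). That call was lost in 4 of 19 alternatives: with no filter on low levels (adjusted p = 0.0751) and without spontaneous PBS replicate 1 (0.114), spontaneous cGAMP replicate 1 (0.0715) or spontaneous cGAMP replicate 2 (0.117).

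Of the 18 regulators listed between STING and the Ccl5 promoter, 15 were tested. In spontaneous tumours 5 rose, among them the interferon-response genes Irf7, Irf1, Irf9 and Stat2, and none fell. In implanted tumours 9 rose, among them the same 4 with Tmem173, Tbk1, Nfkbia and Tnfaip3, and Ifnar1, a receptor chain for type I interferon, fell. Over all genes tested, 5.09% rose and 7.59% fell in spontaneous and 8.60% rose and 16.4% fell in implanted tumours. The median of the 15 regulators was 0.32 and 0.41 against -0.10 over all genes. Tmem173, the gene for STING, had 72.8 to 98.4 CPM in spontaneous and 83.7 to 129 CPM in implanted libraries, so it was present in all groups (0.41 ± 0.13 in implanted tumours, adjusted p = 0.0414, limma). Tbk1, the kinase downstream of STING, had 33.5 and 36.4 CPM after PBS and 55.8 and 56.8 CPM after cGAMP in implanted tumours (adjusted p = 0.000928, limma). Irf3, which TBK1 activates by phosphorylation, was not called in either model (-0.38 ± 0.12 and -0.33 ± 0.12, adjusted p = 0.064 and 0.0677, limma), nor were Rela and Nfkb1, subunits of NF-kB.

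Irf7, an interferon-induced factor that can act on the same elements as IRF3, had 20.2 and 27.2 CPM after PBS and 1421 and 1393 CPM after cGAMP in spontaneous tumours (5.85 ± 0.19). In implanted tumours it had 96.9 and 65.0 CPM after PBS and 1274 and 1539.97 CPM after cGAMP (4.12 ± 0.19). Ifnb1, the gene for interferon beta, had no UMI in 6 libraries, and its level was 0.0165 and 1.49 CPM in implanted tumours after cGAMP.

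The profile of Ccl5 over the 8 libraries had no close match. Among 10423 other genes the nearest was Irf7, with a root mean square difference of 2.35 on the centred log2(CPM + 1) scale, followed by Trim30d, Oasl1, Mx1 and Ifit3 with 2.36 to 2.49. These are genes of the interferon response, and each differed from Ccl5 by a smaller rise. The measure includes the size of the rise, for which Ccl5 was chosen. The smaller rises, and in part the lack of a close match, follow from that choice. Oasl1, for instance, had 2.03 and 1.90 CPM after PBS and 108 and 107 CPM after cGAMP in spontaneous tumours.

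Across the ECs within each cGAMP library, Ccl5 went most with Npc2, Cd63, Nupr1, Ccl2 and Oasl1, among 7074 genes found in at least 10% of ECs. The mean Pearson r over the 4 libraries was 0.39 for Npc2, a lysosomal cholesterol carrier, 0.39 for Cd63, a tetraspanin of late endosomes and Weibel-Palade bodies, and 0.37 for Nupr1, a stress-induced nuclear protein. It was 0.33 for Ccl2 and 0.32 for Oasl1. For Npc2 it was 0.46, 0.43, 0.19 and 0.46 in the single libraries, lowest in the shallow implanted cGAMP replicate 1. The lowest mean r was -0.31 for Aqp1, the water channel of capillary ECs, named after the values were seen. These values are a description over cells that share a library and its free RNA, and cells are not replicates.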

How the data were processed

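Tumour ECs of 8 libraries (2 mice per group) were profiled with 10x Genomics 3′ v3 chemistry. Per the labels, the authors used Cell Ranger 3.0.0 and Seurat 3.1.1 with mm10, and per the study's methods they removed cells with under 500 genes or over 10% mitochondrial reads. The deposited values are natural log values, ln(1 + UMIs × 10000 / total UMIs of the cell). UMIs were worked back from each cell's smallest value, and all came out whole within 0.01. CPM is 100 times the back-transformed value. No doublets were called. Group tests used limma 3.58.1 (R 4.3.3) on log2(mean CPM + 1) over ECs, for genes that reached 5 CPM in 2 or more libraries, all libraries in 1 fit with 4 group means. Marker-defined sets, with at least 20 cells in at least 3 cGAMP libraries, were fitted on the cGAMP libraries with the library as a term. Test scripts were tested on simulated data. Named genes were the 4 called genes with the largest change per list and model, CC chemokine neighbours, known regulators of Ccl5, the 5 nearest profiles and the 5 highest correlations over ECs. Some listed genes are counted but not reported here by name. The gene and the lists were chosen with earlier results of these data known. Matrices, intervals and figures used Python 3.11.15, numpy 2.4.6, pandas 2.3.3, scipy 1.17.1 and matplotlib 3.10.9. Intervals and floors cover counting error only.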

Additional observations from a re-analysis of the deposited data

Results flagged for a closer look

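For 5 of the 14 named list genes, against 0.662% of all genes tested, the response to cGAMP differed between implanted and spontaneous tumours in a test of the difference itself (implanted minus spontaneous on the log2(CPM + 1) scale, limma with adjustment over all genes). The 14 had been named for large called changes, so their share is not comparable with that of all genes. The difference was -4.34 ± 0.42 for Cxcl9 (adjusted p = 0.00601), whose level after PBS was already high in both implanted libraries. It was -1.72 ± 0.26 for Irf7 (adjusted p = 0.029) and -0.909 ± 0.13 for Irf9 (adjusted p = 0.0241), both interferon-response factors that rose in each model. Ackr2, the scavenger that binds CCL5, differed by 1.62 ± 0.27 (adjusted p = 0.0416). The share of lymphatic ECs was also higher after cGAMP than after PBS in implanted tumours, and its part in the Ackr2 value was not tested. Ccl20 differed by 8.41 ± 1.19 (adjusted p = 0.0241), a fitted value that rests on 0 CPM in both implanted PBS libraries and is no bound. The same difference for Ccl5 was -0.58 and was not tested.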

How the results depend on the processing

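Ccl5 in implanted against spontaneous tumours after cGAMP stayed under the threshold in all 19 alternatives run, from 0.27 to 0.84 (adjusted p 0.0603 to 0.81, limma). After PBS the difference, given without a test, ran from 0.27 to 1.80 over the alternatives. It was 1.31 in all deposited cells, 1.46 with UMIs summed per library and 1.13 with the replicate number as a block. On leaving out 1 library it ranged from 0.47 to 1.80, the latter without implanted PBS replicate 2. The cause of this spread was not tested. With a pseudocount of 10 CPM the responses were 7.20 (spontaneous) and 7.48 (implanted) and their difference 0.28, as the larger pseudocount shrinks folds of low genes. The implanted response was 8.65 in all deposited cells and 8.63 to 9.96 on leaving out 1 library, and the difference of responses 0.11 in ECs without other-cell markers and -1.24 to 0.085 on leaving out 1 library (implanted PBS replicates 2 and 1). Tip, AQP7 capillary and venous differences kept their call and direction in all 8 alternatives each. The arterial difference was -0.80 (adjusted p = 0.0513) in cells with at least 2000 UMIs and -1.19 to -0.57 on leaving out 1 library, and the lymphatic one 0.46 to 1.04. The lymphatic set could not be fitted in ECs without other-cell markers, an alternative chosen after seeing the data, as was the crossed block. Listed genes called in spontaneous tumours were 11, but 19 with UMIs summed per library and 8 to 19 on leaving out 1 library (19 without either implanted cGAMP replicate). Reversed but uncalled were Sdc4 in spontaneous tumours, at 0.029 in ECs with a Cdh5 UMI, 0.16 in all cells, 0.28 with summed UMIs, 0.18 in cells with at least 2000 UMIs and from -0.37 to 0.18 on leaving out 1 library (above 0 without spontaneous cGAMP replicate 2), and Sdc1 in implanted tumours, at 0.044 without implanted PBS replicate 2 and 0.13 without implanted cGAMP replicate 2 (-0.64 to 0.13 over the libraries left out). Over all genes, the calls for cGAMP in spontaneous tumours were 1322, and 2839 with UMIs summed per library. Leaving out a library leaves its group with 1 sample, assumed to vary like the others.

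The replicate numbers were not taken to pair the libraries: the correlations of the deviations of same-numbered libraries from their group means ran from -0.22 to 0.13 over 6 pairs of groups. With 2 libraries per group these values cannot settle whether the libraries are paired. The block did not change the call for Ccl5 between the models after cGAMP and left 11 and 24 listed genes called. Crossing the numbers between PBS and cGAMP libraries gave 1057 and 2355 genes called over all genes, against 1230 and 2524 with the numbers as labelled. With 2 libraries per group and 2 or 9 Ccl5 UMIs in the spontaneous PBS libraries, depth limits the PBS levels.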
